A study of Mus musculus with 9 samples.

Results

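Scavenger receptors are the macrophage surface proteins that bind modified lipoproteins, microbial products and dying cells. The 10 genes described here are Olr1, Msr1, Marco, Cd36, Scarb1, Mrc1, Cd163, Stab1, Scarf1 and Cd68, taken by symbol from a count table of 24061 gene symbols, with the counts of all rows of a symbol summed. All 10 were in the table, on 19 of its 32850 rows. RNA-seq was performed on bone-marrow-derived macrophages (BMDMs), primary cells grown from the bone marrow of female C57BL/6J mice of 8 to 10 weeks, in 3 groups with 3 libraries each. The study calls them biological replicates and, for its BMDM experiments, counts separately differentiated cultures as n. The sources used here do not say whether these cultures come from separate mice. All cells grew in L-cell conditioned medium for 7 days, and for 1 more day serum was withdrawn and the share of L-cell medium was 4%. On day 8, Veh cells received DMSO, LPS cells received DMSO for 3 hr and then 10 ng/mL of LPS, a bacterial TLR4 agonist, for 2 hr, and T0+LPS cells received 500 nM of the synthetic LXR agonist T0901317 (T0) for 3 hr before the same LPS, with the agonist still present. The time at which Veh cells were harvested is not given in the sources used here. LPS against Veh shows how the receptors respond to the bacterial stimulus, and T0+LPS against LPS compares LPS-stimulated cells with and without an LXR agonist. None of these libraries received T0 alone. A change in the LPS response therefore cannot be told apart from an effect of T0 that does not need LPS. Libraries held 13299044 to 16467983 counted reads, so 3 reads, the floor used for a gene at or near 0, correspond to 0.182 to 0.226 CPM, the usual unit of reads relative to the library total.

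Macrophages take up oxidized and acetylated lipoproteins through scavenger receptors, which, unlike the LDL receptor, are not shut down by the cholesterol they bring in, and this uptake produces the foam cells of atherosclerotic plaques. LXRs are nuclear receptors that sense oxysterols and turn on genes of cholesterol efflux, so uptake and efflux set the lipid load of the cell. Several scavenger receptors also bind bacteria or bacterial lipids and act in innate immunity.

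The design can be read from genes that are known to respond to each treatment. Abca1, the cholesterol efflux transporter, was at 723, 733 and 730 CPM (from here on scaled with TMM factors over the 9 libraries) in Veh, at 1900, 1661 and 1961 CPM in LPS and at 4915, 5117 and 5284 CPM in T0+LPS. All 5 LXR response genes tested rose in T0+LPS against LPS, with a median log2 fold change of 1.47 against 0.00 over all genes tested. All 5 LPS response genes tested (Il1b, Tnf, Ptgs2, Cxcl1 and Nfkbia) rose in LPS against Veh, with a median of 9.23. Without T0, 2 of the LXR response genes rose and 2 fell with LPS, and with T0, 3 of the LPS response genes were lower than with LPS alone. Among these 3, the call of Il1b was lost with the replicate block in DESeq2 (adjusted p = 0.316). Of the 7 macrophage markers, Itgam had no read on its 3 countable bases and 6 were tested, of which 4 rose and 2 fell with LPS and 1, Mertk, was higher in T0+LPS than in LPS, where DESeq2 and limma each called 2 higher. Over all genes 32.9% were called higher and 31.2% lower in LPS against Veh, and 1.35% and 1.83% in T0+LPS against LPS. With library totals in place of TMM factors the LPS calls of Adgre1 and Csf1r among the markers and of Srebf1 among the LXR response genes were lost, and Lyz2 was called lower (adjusted p = 0.00256). The call of Lyz2 as higher was also lost with the replicate block in DESeq2 (adjusted p = 0.0713), without Veh replicate 2 (0.155) or 3 (0.141) and without LPS replicate 2 (0.12). Summed over the list, Veh libraries had 28571, 26330 and 26642 CPM, LPS libraries 31790, 33193 and 31825 CPM and T0+LPS libraries 36080, 34600 and 34984 CPM, with Lyz2 the most abundant gene.

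Whether a receptor could be measured depended on its transcripts. The deposited counts lack reads that fall only on bases shared by several rows of the table. A counted read can extend beyond the bases of 1 row, as Lipa had 5 reads on 4 such bases. Olr1, Marco, Mrc1 and Scarf1 have 1 row each and all of their exon bases can be counted, and Stab1 has 1 row with 7887 of its 7995 bases free, the rest being shared with Nt5dc2. Msr1 could be counted on 2886 of 3998 bases, Scarb1 on 708 of 3100 and Cd68 on 434 of 1247. Cd36, the class B receptor for oxidized lipoproteins and fatty acids, has 5 rows that share all but 249 of 3927 bases, and these rows held 0 reads in every library. Its free bases belong to the first exon of 1 row, so the count of 0 limits reads of that exon to the floor and says nothing of the level of Cd36. Cd163, the hemoglobin-haptoglobin receptor, was countable on 83 of 4492 bases and had 1 read in Veh replicate 2, 1 read in T0+LPS replicate 1 and 0 in the other 7 libraries. Cd36 and Cd163 were therefore not measured, and no fold change is given for them. The remaining 8 genes passed the filter on low counts in each of the 3 comparisons.

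**Figure D1:**
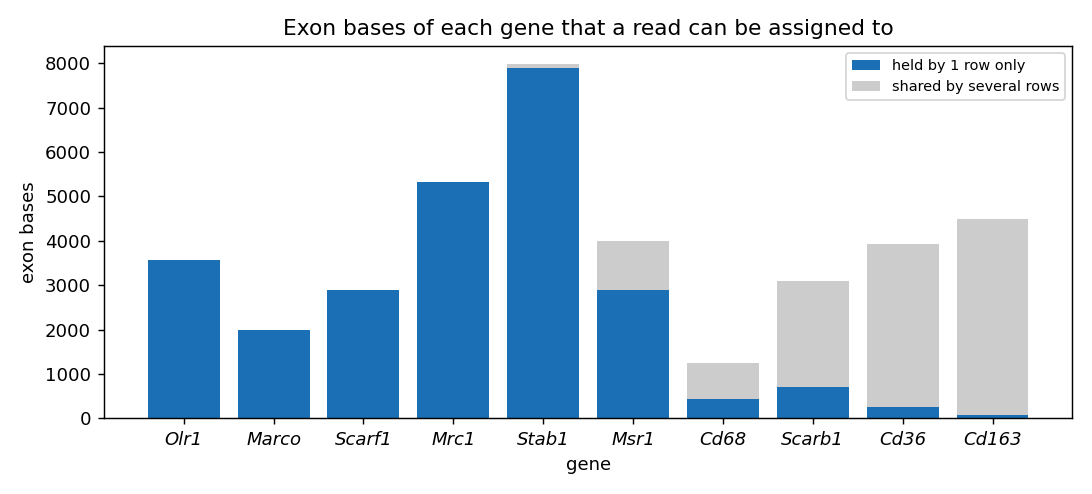
Exon bases of the 10 scavenger receptor genes, as bars from 0, split into bases that belong to 1 row of the table and bases shared by several rows. Reads that fall only on shared bases were not counted. Cd36 and Cd163 have 249 and 83 countable bases, against 3569 for Olr1.

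LPS raised 3 of the 8 tested receptors, Olr1, Marco and Msr1, and lowered Scarb1 and Stab1. Over all 9559 genes tested, 32.9% were called higher and 31.2% lower at an adjusted p under 0.05, so 3 of 8 and 2 of 8 are shares close to those of the whole table. Called log2 fold changes ran from -0.64 for Stab1 to 8.07 for Olr1. With T0, 1 receptor was lower than with LPS alone, Olr1, where over all 9348 genes tested 1.83% were called lower and 1.35% higher. With the filter on low counts, edgeR called no receptor higher, and 1, Marco, had an unadjusted p under 0.05. DESeq2 and limma also called 0 higher and Olr1 lower. The number of all genes called lower depends on single libraries: it was 171 with all of them, 82 without LPS replicate 1, 103 without T0+LPS replicate 1 and 94 without T0+LPS replicate 2. In a bulk sample, fewer cells of a type and less RNA per cell cannot be told apart.

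**Figure D2:**
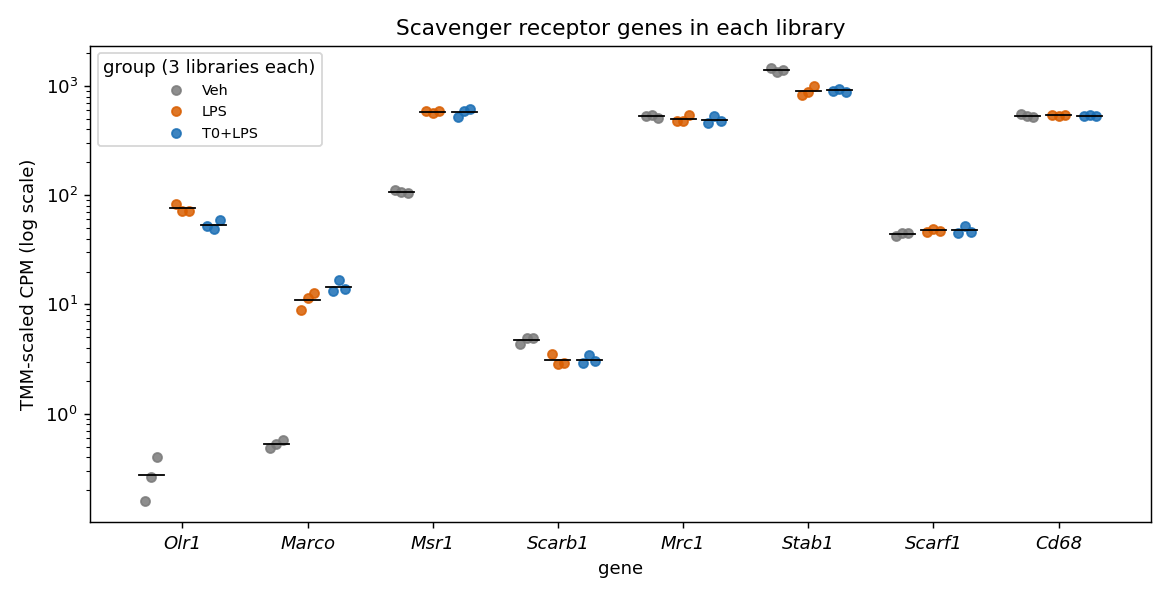
TMM-scaled CPM on a log axis for the 8 tested receptors, with 1 point per library and a line at the mean of 3 libraries, in Veh, LPS and T0+LPS. Olr1 is at 0.16 to 0.405 CPM in Veh, 71.6 to 83.9 CPM in LPS and 48.7 to 59.4 CPM in T0+LPS, while Cd68 lies between 524 and 549 CPM in all 9 libraries.

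Olr1 encodes the lectin-like receptor for oxidized LDL, LOX-1, which is also known to bind bacteria and dying cells. Its 8 exons span 129485247 to 129507165 of chromosome 6 (mm10, minus strand). Promoter windows from RefSeq (build GRCm38.p6, from 250 bases before to 50 after each gene's start) matched for 7 of the 10 genes, and Msr1, Scarb1 and Scarf1 were not analysed here. Shown are the 250 bases before the start of Olr1 and Marco, whose RNAs rose together with LPS, of Stab1, whose RNA fell, and of Cd68, whose RNA did not pass the test. The RefSeq start of Marco lies within the span of its row in the table. Capitals mark matches on either strand to the AP-1 motif TGANTCA, the ETS core of PU.1 GAGGAAG and the nuclear receptor half-site AGGTCA.
Olr1 promoter, chr6:129507166-129507415, minus strand: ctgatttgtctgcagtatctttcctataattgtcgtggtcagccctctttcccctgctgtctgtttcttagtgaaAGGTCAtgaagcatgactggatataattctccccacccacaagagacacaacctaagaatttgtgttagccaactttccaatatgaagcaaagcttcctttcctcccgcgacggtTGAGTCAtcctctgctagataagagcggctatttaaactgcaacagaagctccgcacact
Marco promoter, chr1:120505025-120505274, minus strand: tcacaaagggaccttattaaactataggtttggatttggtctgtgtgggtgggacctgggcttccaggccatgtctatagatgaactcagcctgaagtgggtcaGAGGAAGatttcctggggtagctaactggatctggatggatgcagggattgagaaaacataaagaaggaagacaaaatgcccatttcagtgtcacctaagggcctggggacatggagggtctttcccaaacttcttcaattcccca
Stab1 promoter, chr14:31168642-31168891, minus strand: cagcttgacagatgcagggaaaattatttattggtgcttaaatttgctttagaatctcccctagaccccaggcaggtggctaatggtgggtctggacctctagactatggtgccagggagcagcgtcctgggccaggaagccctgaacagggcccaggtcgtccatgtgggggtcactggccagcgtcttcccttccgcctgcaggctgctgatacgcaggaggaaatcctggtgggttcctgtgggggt
Cd68 promoter, chr11:69666171-69666420, minus strand: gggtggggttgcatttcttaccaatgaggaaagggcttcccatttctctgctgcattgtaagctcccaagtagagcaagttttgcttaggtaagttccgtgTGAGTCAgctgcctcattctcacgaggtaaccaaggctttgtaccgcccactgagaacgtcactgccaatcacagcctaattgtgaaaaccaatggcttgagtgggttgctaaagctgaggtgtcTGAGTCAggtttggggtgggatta
The Olr1 window holds a half-site that begins 175 bases before the start and an AP-1 match that begins 60 bases before it. Marco has 1 match to the PU.1 core, 146 bases before its start, Cd68 has 2 matches to the AP-1 motif, at 149 and 24 bases, and Stab1 has no match. Of the windows that are not shown, Mrc1 has 2 matches to the PU.1 core on the other strand and Cd36 has a half-site on the other strand, and Cd163 has none. Over all 32851 windows, 7.81% hold the AP-1 motif, 13.6% the PU.1 core and 16.3% the half-site. No window of the 7 genes holds the kappaB motif (GGGA and TTCC with 2 bases between), found in 1.47% of all windows. None holds DR4 or DR1, direct repeats of the half-site with 4 bases (0.0152% of windows) or 1 base (0.0396%) between, which overlap half-site matches. The motif matches describe letters only and their use in these cells was not tested.

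In the Veh libraries Olr1 had 3, 4 and 7 reads, or 0.16, 0.264 and 0.405 CPM. The LPS libraries had 1059, 989 and 927 reads, or 83.9, 72 and 71.6 CPM. In T0+LPS it had 684, 700 and 857 reads, or 52.1, 48.7 and 59.4 CPM. Olr1 was thus close to the floor in unstimulated BMDMs and abundant after 2 hr of LPS, and the highest T0+LPS library lay below the lowest LPS library. Against Veh, LPS raised Olr1 by a log2 fold change of 8.07 (SE 0.16, adjusted p = 1.17e-16), about 269-fold. The few reads in Veh limit the precision of that ratio: the ratio of summed scaled reads is 276, with an exact 95% interval of 164 to 506 that covers counting error only. Among the 9559 genes tested, 0.241% had a larger log2 fold change. T0 lowered the LPS-stimulated level by a log2 fold change of -0.50 (SE 0.08, adjusted p = 0.00157), to 70.5% of that with LPS alone. By size this is place 41 among the 171 genes called lower. The estimate was between -0.59 and -0.43 over all 16 alternatives, with an adjusted p of 0.0148 at most. With T0 present, Olr1 was still far above Veh, with a log2 fold change of 7.54 (SE 0.17, adjusted p = 1.17e-15).

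Marco and Msr1 are the class A receptors, collagen-like trimers that bind acetylated and oxidized LDL and bacterial surfaces. Marco (chromosome 1, 120474538 to 120505084, minus strand) had 9, 8 and 10 reads in Veh, at 0.481, 0.529 and 0.579 CPM. In LPS it had 112, 158 and 165 reads, at 8.88, 11.5 and 12.7 CPM. T0+LPS libraries had 174, 240 and 197 reads, at 13.2, 16.7 and 13.7 CPM. Both stimulated groups were above Veh without overlap, and the T0+LPS libraries were all above the LPS libraries. The rise with LPS was 4.37 on the log2 scale (SE 0.22, adjusted p = 3.48e-11), about 20.6-fold. T0+LPS differed from LPS by 0.40 (SE 0.13, 95% interval 0.11 to 0.68), in the direction opposite to Olr1, and did not pass the test (adjusted p = 0.156). With a looser filter, every gene with at least 1 count, the same difference was called (adjusted p = 0.0155), and it was not called under the other 15 alternatives, where the adjusted p reached 0.71. With 1 library left out, the difference ranged from 0.26 without LPS replicate 1 (adjusted p = 0.543) to 0.51 without LPS replicate 3 (adjusted p = 0.0552), and it was 0.29 without T0+LPS replicate 2 (adjusted p = 0.453).

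Msr1 encodes scavenger receptor A. Its summed level was 111, 108 and 105 CPM in Veh, 590, 568 and 585 CPM in LPS and 519, 595 and 618 CPM in T0+LPS. LPS libraries were all above Veh, and the T0+LPS libraries spanned the LPS values. LPS raised Msr1 by a log2 fold change of 2.43 (SE 0.04, adjusted p = 4.28e-17), or 5.39-fold. The difference between T0+LPS and LPS was -0.01 (SE 0.06, 95% interval -0.13 to 0.11, adjusted p = 0.969).

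A comparison of Olr1 with these receptors inside each library needs no scaling. In LPS there were 14.2, 12.7 and 12.2 Olr1 reads for every 100 Msr1 reads, and in T0+LPS there were 10, 8.19 and 9.62. Olr1 reads per Marco read were 9.46, 6.26 and 5.62 in LPS and 3.93, 2.92 and 4.35 in T0+LPS. Both ratios were lower in every T0+LPS library than in any LPS library. They use the same Olr1 reads as the test above. Because Marco was itself higher in each T0+LPS library than in each LPS library, its ratio does not reflect Olr1 alone. An exact permutation test over the 6 libraries gives a 2-sided p = 0.1 for each ratio, the smallest that 3 against 3 libraries allow.

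The 2 rows of Msr1 had different fold changes. Both lie on chromosome 8 on the minus strand, up to 39642678, and they differ at the 3' end. The long form ends with its own exons at 39589290 to 39589478 and 39581700 to 39581865, which match a GENCODE transcript of 1374 coding bases. The short form ends in an exon at 39603452 to 39605982, of which 2529 bases are in a transcript of 1062 coding bases, and which lies in an intron of the long form. As background, the long form encodes the type I receptor with its cysteine-rich domain, and the short form the type II receptor that lacks it.

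Reads on the long-form exons were 212, 155 and 152 in Veh, 178, 197 and 169 in LPS and 159, 229 and 199 in T0+LPS. On the last exon of the short form there were 1872, 1479 and 1657 reads in Veh, 7263, 7612 and 7408 in LPS and 6663, 8314 and 8708 in T0+LPS. The added Msr1 reads were mostly reads on the short-form exon. Per kilobase of these exons, the short form was 1.37 ± 0.148 times (SD, n = 3) as abundant as the long form in Veh, 5.76 ± 0.366 times (SD, n = 3) in LPS and 5.70 ± 0.544 times (SD, n = 3) in T0+LPS. The ratio was higher in every stimulated library than in any Veh library (exact permutation test, 2-sided p = 0.1, the smallest possible), and LPS and T0+LPS overlapped (exact permutation p = 0.9). Tested as single rows, where 32.6% of 9768 rows were called higher in LPS against Veh and 31% lower, the short form rose by 2.53 (SE 0.04, adjusted p = 2.58e-17) and the long form by 0.45 (SE 0.11, adjusted p = 0.0017). With library totals as the scaling, changes against Veh shift by -0.28 at the median, but the ratio of the forms within a library is not affected. Reads from unspliced RNA on the short-form exon cannot be told apart from reads of the short form. Reads can also extend past the counted exons, which weighs more on short exons, so the ratios per kilobase are approximate.

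**Figure D3:**
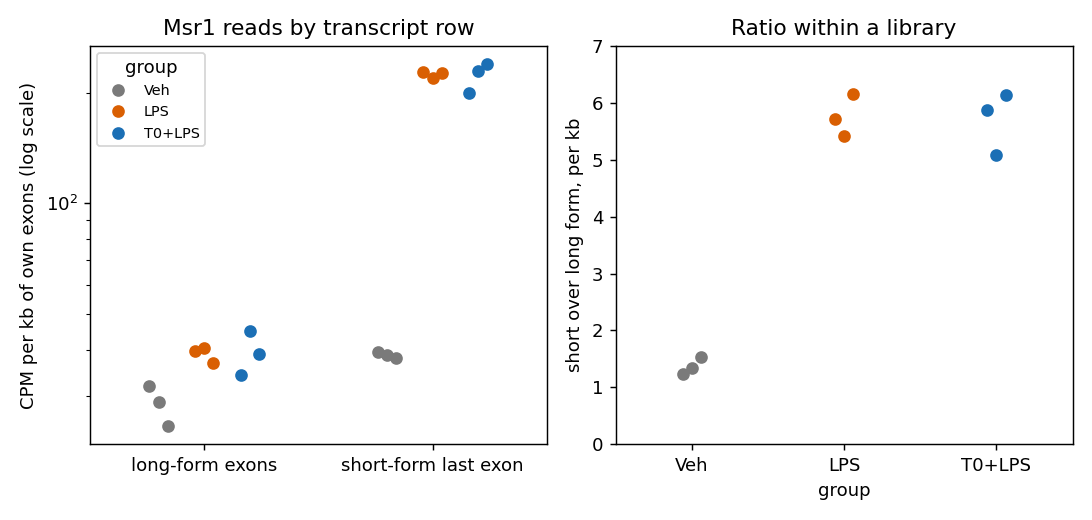
Left, CPM per kilobase, on a log axis, of the exons that only the long or only the short form of Msr1 has, 1 point per library in Veh, LPS and T0+LPS. Right, the ratio of short to long form in each library, between 1.24 and 1.53 in Veh and between 5.09 and 6.15 in the stimulated groups.

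Scarb1 encodes SR-BI, the class B receptor for HDL that moves cholesterol in both directions. Its few countable bases gave 81, 75 and 85 reads in Veh, 44, 39 and 38 in LPS and 38, 49 and 44 in T0+LPS. In CPM these are 4.33, 4.96 and 4.92 in Veh, 3.49, 2.84 and 2.93 in LPS and 2.89, 3.41 and 3.05 in T0+LPS. All Veh libraries were above all stimulated libraries, and LPS and T0+LPS overlapped. The difference of LPS against Veh was -0.61 (SE 0.16, adjusted p = 0.00395), and that of T0+LPS against LPS was 0.02 (SE 0.19, adjusted p = 0.98). With the replicate block in DESeq2 the call of LPS against Veh was lost (-0.61, adjusted p = 0.121), and over all alternatives the adjusted p ranged from 0.000155 to 0.121. A row of Scarb1 with 579 countable bases, which GENCODE has in transcripts with a retained intron, differed by -1.60 (SE 0.38, adjusted p = 0.00146) from 20, 21 and 27 reads in Veh to 9, 5 and 3 in LPS. The row with the most reads is counted on a single exon of 129 bases, which holds 61, 54 and 58 reads in Veh and 35, 34 and 35 in LPS, and its difference of -0.36 (SE 0.17) was not called (adjusted p = 0.0856).

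The next receptors act in endocytosis and clearance. Stab1 encodes stabilin-1, which clears acetylated LDL and matrix fragments. Its level was 1473, 1350 and 1390 CPM in Veh, 821, 889 and 995 CPM in LPS and 899, 945 and 883 CPM in T0+LPS. Each Veh library was above each stimulated library, and T0+LPS lay within the range of LPS. LPS lowered Stab1 by a log2 fold change of -0.64 (SE 0.06, adjusted p = 7.78e-08), to 64.3% of Veh, and T0+LPS differed from LPS by 0.01 (SE 0.06, adjusted p = 0.965). Mrc1, the mannose receptor, was at 532, 545 and 507 CPM in Veh, 481, 482 and 543 CPM in LPS and 460, 535 and 482 CPM in T0+LPS. The 3 groups overlapped. Mrc1 in LPS differed from Veh by -0.07 (SE 0.05, 95% interval -0.18 to 0.04, adjusted p = 0.237), and T0+LPS from LPS by -0.03 (SE 0.06, adjusted p = 0.904). Only T0+LPS against Veh passed for Mrc1, at -0.12 (SE 0.05, adjusted p = 0.0357), a call lost under 8 of 16 alternatives. Among them were the fits without Veh replicate 1 (adjusted p = 0.0833), Veh replicate 2 (0.139), T0+LPS replicate 1 (0.203) and T0+LPS replicate 3 (0.154). Without LPS replicate 3, Mrc1 was also called lower in LPS against Veh, at -0.14 (adjusted p = 0.00313).

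Scarf1, a receptor for acetylated LDL and apoptotic cells, was at 42.4, 44.8 and 44.8 CPM in Veh, 46.5, 49.5 and 47.3 CPM in LPS and 45.4, 51.9 and 46.3 CPM in T0+LPS. Every Veh library was below every stimulated library, by a small margin. LPS against Veh gave 0.12 (SE 0.06, adjusted p = 0.063) and T0+LPS against LPS 0.00 (SE 0.07, adjusted p = 0.99). T0+LPS against Veh gave 0.10 (SE 0.06, adjusted p = 0.146), which was called without T0+LPS replicate 1 (0.15, adjusted p = 0.0454). Cd68, the lysosomal glycoprotein used as a macrophage marker, was at 549, 528 and 524 CPM in Veh, 545, 529 and 545 CPM in LPS and 530, 538 and 527 CPM in T0+LPS. The groups overlapped throughout. Its 95% intervals were -0.06 to 0.10 for LPS against Veh (adjusted p = 0.69) and -0.11 to 0.07 for T0+LPS against LPS (adjusted p = 0.881). These small differences depend on the scaling. With library totals in place of TMM factors the median log2 fold change of all genes moves to -0.28, and in LPS against Veh Cd68 at -0.26 (adjusted p = 1.88e-05), Scarf1 at -0.16 (adjusted p = 0.0176) and Mrc1 at -0.35 (adjusted p = 2.08e-05) are then called lower. The first 2 thereby turn direction, while Olr1, Marco and Msr1 are higher and Stab1 and Scarb1 lower with either scaling.

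**Figure D4:**
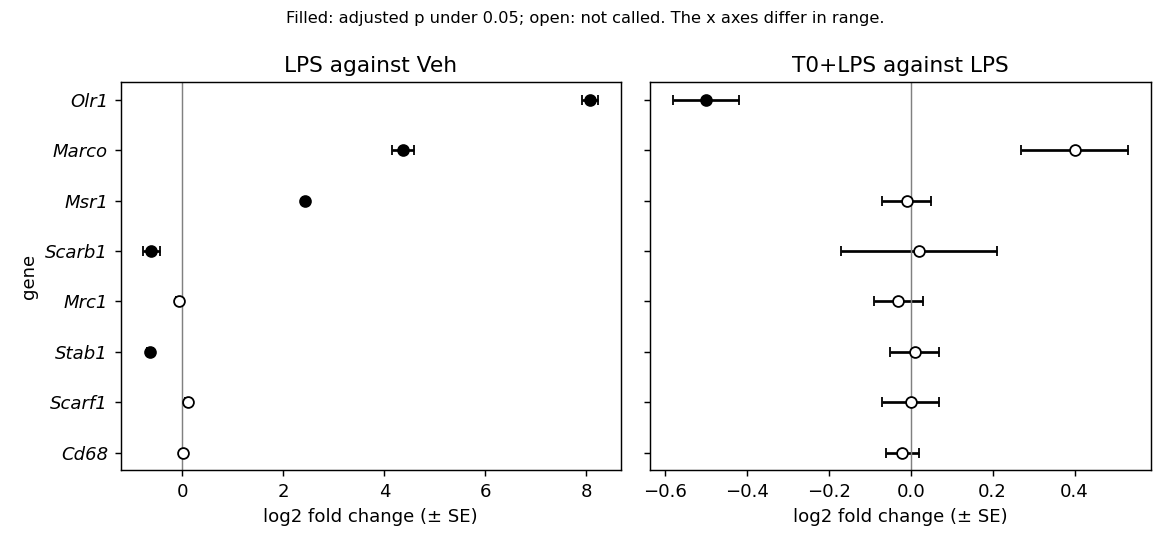
Log2 fold changes with standard errors for the 8 tested receptors in LPS against Veh and in T0+LPS against LPS, on axes of different range, filled where the adjusted p was under 0.05. Olr1 is at 8.07 and -0.50, Marco at 4.37 and 0.40 and Msr1 at 2.43 and -0.01, and both comparisons use the same LPS libraries.

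Side by side with Veh as the reference, the stimulated groups gave similar values for most receptors. Of the 8 tested, 3 were called higher and 3 lower in T0+LPS against Veh, where 32.4% of 9636 genes were called higher and 32.9% lower. Log2 fold changes against Veh were 2.43 in LPS and 2.40 in T0+LPS for Msr1, -0.64 and -0.65 for Stab1, and -0.61 and -0.62 for Scarb1. For Marco they were 4.37 and 4.74. Olr1 was at 8.07 and 7.54. These comparisons share the Veh libraries.

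Per kilobase of countable bases, the order of the receptors changed with LPS. In Veh the level was highest for Cd68, at 1229 CPM per kb, followed by Stab1 at 178, Mrc1 at 99.3, Msr1 at 37.4, Scarf1 at 15.3, Scarb1 at 6.69, Marco at 0.267 and Olr1 at 0.0775. No neighbours in that order overlapped between libraries. In LPS the order was Cd68 at 1244 CPM per kb, Msr1 at 201, Stab1 at 114, Mrc1 at 94.4, Olr1 at 21.2, Scarf1 at 16.6, Marco at 5.56 and Scarb1 at 4.36, and only Marco and Scarb1 overlapped. Olr1 thus moved from the lowest place to a level above Scarf1. In T0+LPS, Olr1 at 15 and Scarf1 at 16.6 CPM per kb overlapped. Reads can extend past countable bases, so levels per kilobase may be too high where these bases are few. The full exon length gives lower levels per kilobase for genes with shared bases, such as 428 in place of 1229 for Cd68 in Veh, and the same order in each group.

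Among the 5 genes whose 9 values are most like those of Olr1, by Euclidean distance of log2(CPM + 0.5) centred on each gene's mean among 7298 genes with a mean of at least 5 CPM, 4 are Icam1 (distance 0.348), Adora2a (0.488), Rnd1 (0.685) and Vcam1 (0.694). Icam1 was at 35.9 ± 4.2 CPM (SD, n = 3) in Veh, 3731 ± 193 in LPS and 2941 ± 246 in T0+LPS. Vcam1 was at 0.411 ± 0.106, 74.7 ± 3.5 and 52.2 ± 6.08 CPM. By group means, these 4 were lowest in Veh and highest in LPS, with T0+LPS between, although Rnd1 overlapped between LPS and T0+LPS. Log2 differences of T0+LPS against LPS, on the same values that chose them, were -0.34 for Icam1, -0.42 for Adora2a, -0.15 for Rnd1 (not called, adjusted p = 0.674) and -0.52 for Vcam1. Among receptors, Marco was at place 94 (distance 4.05) and Msr1 at place 190 (distance 5.65).

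**Figure D5:**
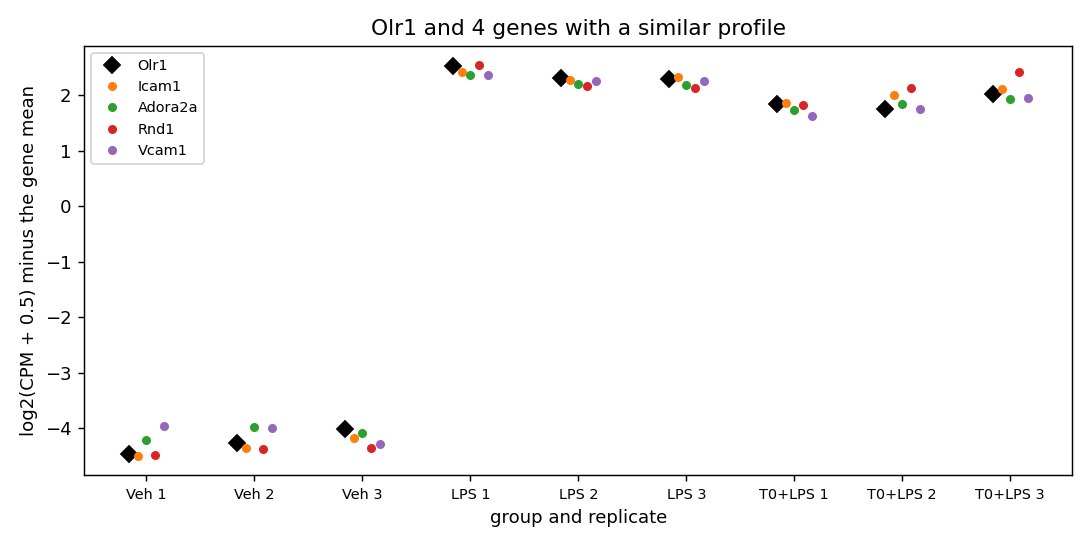
log2(CPM + 0.5) minus the gene's own mean in each of the 9 libraries for Olr1 (diamonds) and 4 of the 5 genes with the smallest distance to it, Icam1, Adora2a, Rnd1 and Vcam1. Olr1 lies between -4.47 and -4.02 in Veh, 2.30 and 2.53 in LPS, and 1.75 and 2.03 in T0+LPS.

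Other scavenger receptors had smaller log2 fold changes with LPS than Olr1. Of 13 further receptor genes, 8 were tested, and LPS raised Cxcl16 and Cd14 and lowered Lrp1, Ssc4d and Scarf2, with a list median of -0.16 against 0.00 over all genes. These are 2 and 3 of 8, beside 32.9% higher and 31.2% lower over all genes. The call of Scarf2 was lost in DESeq2, with the replicate block in DESeq2, without Veh replicate 2 and without LPS replicate 2, with an adjusted p of up to 0.212. Cxcl16, a membrane chemokine that binds oxidized LDL, rose from 159, 154 and 171 CPM in Veh to 599, 615 and 592 CPM in LPS (log2 fold change 1.90, SE 0.05, adjusted p = 1.94e-15). Lrp1, a large endocytic receptor, differed by -0.23 (SE 0.05, adjusted p = 0.000664). In T0+LPS against LPS, edgeR, DESeq2 and limma called 0 of the 8, and 1, Cxcl16 at 0.11 (SE 0.04, adjusted p = 0.264), had an unadjusted p under 0.05. Over all genes 1.35% were called higher and 1.83% lower, and the list median was 0.04.

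Receptors hand their cargo to genes that hydrolyze, store and export cholesterol. Of 14 such genes, 10 were tested, and 4 rose and 6 fell with LPS, beside 32.9% higher and 31.2% lower over all genes, with a median of -0.18. The largest changes were in opposite directions, in the cholesterol exporters Abca1 at 1.34 (SE 0.05, adjusted p = 1.37e-12) and Abcg1 at -1.25 (SE 0.04, adjusted p = 7.26e-14). Among the 10 calls, those of Apoe, Lpl and Npc2 were lost under 7, 9 and 8 of 15 alternatives, and with library totals Lpl (adjusted p = 0.000196) and Npc2 (adjusted p = 0.0067) were called lower in place of higher. Soat1, which esterifies cholesterol, differed by -0.54 (SE 0.04, adjusted p = 7.48e-09), Plin2, a lipid droplet coat protein, by -0.68 (SE 0.04, adjusted p = 4.31e-10), and Fabp4, a fatty acid binding protein, by 0.58 (SE 0.06, adjusted p = 3.76e-07). In T0+LPS against LPS, 3 of 10 rose, beside 1.35% over all genes, with a median of 0.05, and edgeR, DESeq2 and limma called 0 lower (1, Fabp4, at an unadjusted p under 0.05). Those that rose were Abcg1 at 2.09 (SE 0.05, adjusted p = 8.04e-14), Abca1 at 1.47 (SE 0.06, adjusted p = 1.36e-10), which were also on the LXR response list, and Lpl at 0.17 (SE 0.04, adjusted p = 0.0362). The Lpl call was lost under 7 of 15 alternatives, among them the fits without any 1 of the LPS libraries and without T0+LPS replicate 1 or 3, with an adjusted p of up to 0.178. Soat1 was then at -0.01 and Plin2 at -0.07, neither of them called. In the same libraries the uptake receptor Olr1 was lower and the efflux genes Abca1 and Abcg1 were higher with T0. With the filter on low counts, the other 7 tested receptors were not called, among them Msr1 at -0.01 and Marco at 0.40. Cd36 was not measured.

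Of 15 transcription factors known to act on macrophage scavenger genes, 13 were tested in LPS against Veh, where 5 rose and 7 fell with a median of -0.32, beside 32.9% higher and 31.2% lower over all genes. With library totals 1 of these calls, that of Stat6, was lost, and with the replicate block in DESeq2 that of Irf4. Tfec was at 10.6, 8.86 and 10.9 CPM in Veh and 182, 163 and 179 CPM in LPS, a log2 fold change of 4.11 (SE 0.07, adjusted p = 4.22e-17). Spi1, which encodes PU.1, rose by 1.16 (SE 0.04, adjusted p = 3.58e-13). In T0+LPS against LPS, 2 of 13 rose and 1 fell, beside 1.35% higher and 1.83% lower over all genes, with a median of 0.03. Irf8, a factor of myeloid cells, differed by 0.58 (SE 0.05, adjusted p = 1.18e-06). The gene that fell, Irf4, was at 4.28, 3.35 and 4.25 CPM in LPS and 1.52, 1.74 and 2.29 CPM in T0+LPS, a difference of -1.08 (SE 0.22, adjusted p = 0.00971). It was not called by DESeq2, which gave it no adjusted p, so that DESeq2 called 0 of this list lower. The call was also lost with the replicate block in DESeq2 (adjusted p = 0.207), without LPS replicate 1 (0.0596) and without T0+LPS replicate 2 (0.0517), and it held under 11 of 15 alternatives.

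Among 14 signalling partners of CD36 and SR-A, 11 were tested, and LPS raised 7 and lowered 1, beside 32.9% higher and 31.2% lower over all genes, with a median of 0.24. With library totals the call of Fcer1g was lost and Itgb2 was called lower (adjusted p = 0.00688). Tlr2 rose by 4.31 (SE 0.05, adjusted p = 1.03e-19), Syk by 1.87 (SE 0.07, adjusted p = 1.25e-12) and Tlr6 by 1.67 (SE 0.06, adjusted p = 3.49e-13). With T0, 1 of the 11 passed, the integrin gene Itgb2, at -0.18 (SE 0.05, adjusted p = 0.0427), beside 1.83% lower and 1.35% higher over all genes, and the median was -0.04. That call was lost under 7 of 15 alternatives, among them the fits without LPS replicate 1 or 2 and without any 1 of the T0+LPS libraries, with an adjusted p of up to 0.304. Of 11 alternative activation genes, which are often read together with Mrc1, 5 were tested in each of these comparisons, and in each 1 was called higher and 1 lower. Over all genes 32.9% were higher and 31.2% lower in LPS against Veh, and 1.35% and 1.83% in T0+LPS against LPS. LPS raised Il4ra by 1.13 (SE 0.05, adjusted p = 2.24e-12) and lowered Irf4, with a median of -0.06, and T0+LPS was higher than LPS for Hmox1 by 0.33 (SE 0.05, adjusted p = 0.0021) and lower for Irf4, with a median of -0.02. DESeq2, with its own filter, called 3 higher and 1 lower in LPS against Veh, and 1 higher and 0 lower in T0+LPS against LPS, where the Irf4 call was lost.

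Markers of other cells differed in level. The summed markers of B cells, T cells, fibroblasts and mast cells were at most 0.661 CPM in every library, with Cd3e, Pdgfrb, Dcn, Mcpt4 and Tpsb2 at 0. Neutrophil markers, 6 of 7 in the table, summed to 1.52 ± 0.385 CPM (SD, n = 3) in Veh, 3.39 ± 0.503 in LPS and 2.61 ± 0.273 in T0+LPS, led by S100a8, with S100a9 at 0. Dendritic cell markers summed to 0.343 ± 0.162 CPM in Veh, 2.51 ± 0.355 in LPS and 2.59 ± 0.621 in T0+LPS, led by Xcr1, with Siglech at 0. Endothelial markers, a list that includes the receptor gene Stab2, summed to 16.1 ± 0.663 CPM in Veh, 10.9 ± 1.49 in LPS and 12.3 ± 1.04 in T0+LPS, led by Kdr, with Tek and Pecam1 at 0. Osteoclast markers summed to 53.5 ± 3.28, 56.6 ± 8.37 and 56.4 ± 5.65 CPM, nearly all from Ctsk, with Calcr and Oscar at 0. Of 5 endothelial markers 2 were tested and Kdr fell with LPS, of 7 neutrophil and 4 dendritic cell markers 1 each was tested in that comparison and rose, and Ctsk, tested of 4 osteoclast markers, was not called. Over all genes 32.9% were called higher and 31.2% lower in that comparison. Some markers at 0 could hardly be counted, with 0 countable bases for Tek, 3 for S100a9, 3 for Pdgfrb, 18 for Oscar and 57 for Pecam1, so their 0 does not show absence. The part of these markers in the receptor results was not tested.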

How the data were processed

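RNA-seq was analysed in 9 libraries of BMDMs, 3 each for Veh, LPS and T0+LPS, grouped by the sample labels. The authors selected polyadenylated RNA, made libraries with a kit that does not mark strand, and, per the submitters' processing notes, used cutadapt, HISAT2, featureCounts of Subread and DESeq2 with mm10. The deposited table holds whole read counts per RefSeq transcript, not normalized. The authors' table of fold values and adjusted p-values for T0+LPS over LPS and their list of gene names for LPS against Veh were not used.

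Counts were summed per gene symbol and tested 6 libraries at a time with the quasi-likelihood test of edgeR 4.0.16 in R 4.3.3, with TMM factors, filterByExpr and Benjamini-Hochberg adjustment over all genes tested, and called at an adjusted p under 0.05. Standard errors come from the same fit. The tests were checked on simulated data. DESeq2 1.42.0, limma-voom (limma 3.58.1), other scalings and filters, a fit to all 9 libraries, a replicate block and single rows were tried as alternatives, and each library was left out in turn. Countable bases are exon bases that no other row of the table covers on either strand. The 95% intervals of log2 fold changes use these standard errors, which include the spread between replicates. The interval of the ratio of summed Olr1 reads and the floors cover counting error only. Libraries of the same group differed by more than counting noise (chi-square divided by its degrees of freedom, 2.75 to 7.18).

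The 10 genes and the lists were chosen with earlier results of these data known, including the lower level of Olr1 with T0. Named from the other lists are at most 6 called genes per list and comparison, those of largest change whose mean was 5 CPM or more. The genes most like Olr1 follow the distance given in the text, and 4 of the 5 are given. The values given for Soat1, Plin2 and Cxcl16 in T0+LPS against LPS, for Irf4, Scarf2, Ssc4d, Apoe, Npc2, Stat6 and Fcer1g by name, and for the 2 rows of Msr1 and Scarb1 were added after the values were seen. Adgre1 and Ssc4d were matched by an older symbol, and Ly6g was not matched.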

Additional observations from a re-analysis of the deposited data

How the results depend on the processing

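The calls for Olr1, Marco and Msr1 (higher) and Stab1 (lower) in LPS against Veh and T0+LPS against Veh, and for Olr1 (lower) in T0+LPS against LPS, held under all 16 alternatives. With library totals in place of TMM factors, 5 receptors were called lower in LPS against Veh, with 1694 genes higher and 5411 lower in place of 3148 and 2981, and 5 in T0+LPS against Veh, with 1659 higher and 5523 lower in place of 3121 and 3172. Cd68 was then at -0.26 and Scarf1 at -0.16 in LPS against Veh, and Scarf1 at -0.16 in T0+LPS against Veh, each turned in direction. With every gene that had at least 1 count, T0+LPS against LPS called 1 receptor higher (Marco), 225 genes higher and 285 lower, in place of 126 and 171.

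No sign of pairing by replicate number was seen. Deviations of libraries with the same number correlated between -0.11 and 0.12, and those with different numbers between -0.20 and 0.22. Only 3 of 18 best matches had their own number. A pairing that leaves little shared deviation would not be seen in this way. With a replicate block in DESeq2, 1 receptor was called lower in LPS against Veh and 1 in T0+LPS against Veh (Stab1), 1979 genes were lower in T0+LPS against Veh, and 69 higher and 79 lower in T0+LPS against LPS. The replicate block in edgeR gave 155 higher and 230 lower there. With each receptor read from its row with the most reads, 1 was lower in LPS against Veh (Stab1), although another row of Scarb1 was also called lower.

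Without each library in turn, T0+LPS against LPS called 59 to 167 genes higher and 82 to 191 lower. The counts were 59 and 82 without LPS replicate 1, 86 and 103 without T0+LPS replicate 1 and 78 and 94 without T0+LPS replicate 2, and Olr1 was called each time. The cause of these shifts was not tested. Of 384 values of single receptors under an alternative, 364 had the same direction and call or were called under neither setting, 12 lost and 5 gained a call and 3 turned. Of the 364, 14 changed sign. Depth limits Olr1 and Marco in Veh, and the counting on unshared bases limits Scarb1, Cd36 and Cd163.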
